A study of Mus musculus with 24 samples.

Results

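The genes of prostaglandin synthesis and signalling were followed through adipocyte differentiation, as total and as newly made RNA, with and without inhibition of sumoylation. The 9 genes, of 26995 gene symbols in the tables, were Ptgs1, Ptgs2, Ptges, Ptges2, Ptges3, Ptgis, Ptgfr, Ptger4 and Ptgr1. They were chosen by symbol, and Ptgs2 was included because its labelled reads were among those that fell most from day −2 to day 7 in DMSO. That contrast is therefore given below as a description, with no test. 3T3-L1 cells are a mouse embryonic fibroblast line that turns into fat cells after hormonal induction. They were kept in DMSO, the solvent control, or in 0.5 µM ML-792, an inhibitor of the SUMO-activating enzyme SAE1/2, and collected at days −2, 1, 3 and 7, counted from the induction with dexamethasone, 3-isobutyl-1-methylxanthine and insulin. At day 3 the medium was changed to one with insulin alone. Each of the 8 combinations of day and treatment had 3 libraries, named A, B and C, which makes 24. The study's methods call them biological replicates. The study's methods give treatment from day −2 for the viability assay. When ML-792 was added to the sequenced cells is not given in the sources used here.

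Prostaglandins are short-range lipid signals made from arachidonic acid. A cyclooxygenase, encoded by Ptgs1 or Ptgs2, turns arachidonic acid into prostaglandin H2, and terminal synthases then make prostaglandin E2 (Ptges, Ptges2, Ptges3) or prostacyclin (Ptgis). The products act on G protein-coupled receptors at the cell surface, among them the prostaglandin F receptor (Ptgfr) and the EP4 receptor for prostaglandin E2 (Ptger4), while prostaglandin reductases such as Ptgr1 inactivate them. In pre-adipocytes prostaglandin F2α and prostaglandin E2 are known to restrain differentiation and prostacyclin to promote it.

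Both readouts came from the same libraries. Cells were given 100 µM 4-thiouridine for 45 min, and reads with a T to C conversion, here called labelled reads, mark RNA made in that time. Reads at the 3′ end of each transcript were counted on RefSeq 3′UTR entries of the mouse genome mm10. The libraries held 13554718 to 27013352 total reads and 115709 to 820046 labelled reads. Labelled reads were 3.17% ± 0.485 (SD, n = 3) of all reads at day −2 in DMSO and 1.03% ± 0.0869 (n = 3) at day 7, and the median entry fell by 1.23 on the log2 scale from day −2 to day 1 in labelled reads. A fall in labelled reads after day −2 is therefore read against that median. The adipocyte markers summed to 22259–23866 normalized reads at day −2 and 630869–706609 at day 7 in DMSO. The fibroblast markers summed to 278675–337715 and 25209–37734. Of the markers of other cell types, Ptprc and Adgre1 of blood cells and Cdh5 of endothelium had 0 reads at days −2 and 7 in DMSO. Other markers of these lists had reads. Summed over the 3 libraries, Csf1r held 136 at day −2 and 2 at day 7, and Cd68 held 76 and 157. For endothelium, Pecam1 held 24 and 27 and Kdr 0 and 1. In a culture, fewer cells of a type and less RNA per cell cannot be told apart.

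Values below are normalized reads, in which each count was scaled so that all 24 libraries have the same effective depth, their mean. Log2 fold changes, their standard errors and adjusted p-values come from edgeR's quasi-likelihood test over all entries, with Benjamini-Hochberg adjustment over 26364 entries for total reads and 10186 for labelled reads. A change was called at an adjusted p under 0.01 for steps in time and under 0.1 for ML-792 against DMSO and for the interaction of day and treatment. All 9 genes passed the filter in total reads, and 7 of 9 passed it in labelled reads. Ptges2 and Ptgis did not, since their labelled counts were low in most groups.

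Sequences of the 3′UTR entries are shown for the pair of genes whose RNA carried most label. Prostaglandin-endoperoxide synthase 2 is a textbook example of an early-response transcript with AU-rich repeats in its 3′UTR, and ATTTA is the core of such repeats. The Ptgs2 entry (chr1:150105783-150108234, plus strand) was 2452 bases long and held 14 ATTTA, counted with overlaps on the transcript strand. Among the 13274 genes tested, 276 had more. At least 10 copies were present in 6.16% of these genes, at least 1 in 66.5%, and the median was 1. The Ptger4 entry (chr15:5233399-5234631, minus strand) held 5 ATTTA in 1233 bases, or 4.06 per kb against 5.71 per kb in Ptgs2 and a median of 1.20 per kb. More copies than in Ptger4 were present in 2151 genes. The Ptgfr entry held 10, Ptges3 4 and Ptgr1 1, and no ATTTA was found in the entries of Ptgs1, Ptges, Ptges2 and Ptgis. At day −2 in DMSO 1.80% of the pooled Ptgfr reads were labelled, against 2.40% in the median gene. The windows of 30 bases with the most copies, with each ATTTA in capitals, lie at chr1:150105794-150105823 for Ptgs2 and chr15:5234223-5234252 for Ptger4, and were read 5′ to 3′ on the transcript strand from the RefSeq copy of this genome build (GRCm38.p6):
Ptgs2: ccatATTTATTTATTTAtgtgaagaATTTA
Ptger4: tattgttggaaatataATTTAaggtATTTA
The Ptgs2 window starts 11 bases into the 3′UTR and holds 4 copies, 3 of them overlapping in one run, whereas the Ptger4 window holds 2. A match is a description of letters and not of binding.

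RefSeq promoters, from 250 bases before to 50 after the annotated start, were found for 8 of the 9 genes, all but Ptgis. Motifs were searched on both strands. CGTCA, the short form of the cAMP response element, was present in Ptgs2 and Ptges3 and in 20.8% of all 32851 promoters. The E-box CACGTG was present in Ptgs2 and Ptges2 and in 7.15% of all promoters. In Ptgs2 they share bases, 13 and 16 bases downstream of the annotated start, in the window chr1:150100035-150100064 (plus strand), shown with both in capitals because none of the other promoters held both:
Ptgs2 promoter: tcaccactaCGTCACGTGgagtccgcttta
The GC box GGGCGG was present in 6 of the 8 promoters and in 35.7% of all, and CCAAT in 2 of the 8 and in 37.4% of all. The letters TATAA on the gene strand were present in Ptgr1 and in 17.5% of all promoters.

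Ptgs2, the inducible cyclooxygenase, had its highest level before induction. At day −2 in DMSO its total reads were 1898, 3849 and 1488 in libraries A, B and C. At day 1 they were 93.6, 162 and 114, at day 3 43.0, 75.3 and 34.0, and at day 7 18.0, 9.37 and 22.7. Every library of a day lay below every library of the day before it. The mean thus went from 2412 ± 1262 to 16.7 ± 6.78 (SD, n = 3), a 144-fold difference that is the contrast behind the choice of the gene. Labelled Ptgs2 reads were 608, 1066 and 403 at day −2, 9, 16 and 15 at day 1, 0, 2 and 2 at day 3, and 1, 2 and 0 at day 7. In the step from day −2 to day 1, which shares the day −2 libraries with that contrast, total reads fell by 4.29 (SE 0.391) and labelled reads by 5.63 (SE 0.473) on the log2 scale, given here as a description with no test. In the step from day 1 to day 3, whose libraries the choice did not use, labelled reads fell further by 2.83 (SE 0.655, adjusted p = 0.00303, edgeR). That call was lost with DESeq2 (adjusted p = 0.0104), with labelled reads scaled by their own totals (0.0131), without the A libraries (0.0581) and without the C libraries (0.0226). Total reads did not pass the threshold in this step (log2 fold change −1.28, SE 0.388, adjusted p = 0.0213, edgeR), but did with DESeq2 (0.00583), with the library letter as a block (0.00291), without a filter on low counts (1.12e-05) and without the B libraries (0.000312).

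Before induction a large part of the Ptgs2 RNA was newly made. The labelled share of its reads at day −2 was 25.7%, 24.4% and 23.6% in the DMSO libraries, with Wilson 95% intervals that together span 21.6% to 27.5%. Reads are not independent molecules, so these intervals cover counting error only. Of 9387 genes with at least 300 reads in this group, 33 had a higher share over the pooled reads, and the median gene had 2.40%. The entry held 34.2% T against a median of 28.7% over the genes tested, and T is the base that 4-thiouridine replaces. The part of T content in the labelled share was not tested. In ML-792 the day −2 shares were 28.6%, 26.5% and 25.5%, with 13 of 9633 genes above. At day 1 the share was 9.64% ± 1.21 in DMSO (n = 3) and 9.85% ± 4.38 in ML-792 (n = 3). From day 3 on, 4 and 3 labelled reads were left in the 3 DMSO libraries together, too few for shares to be compared.

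Ptgs1 encodes the cyclooxygenase that most tissues express constitutively. Its total reads at day −2 (4499, 5937 and 4531) and day 1 (4659, 6842 and 4116) differed by less than the spread of the libraries (log2 fold change 0.06, SE 0.199, adjusted p = 0.87, edgeR). At day 3 they were 499.5, 592 and 631, below every day 1 library. That step was a fall by 3.18 on the log2 scale (SE 0.218, adjusted p = 4.54e-08), with labelled reads falling by 3.90 (SE 0.654, adjusted p = 2.80e-05). At day 7 the values were 312, 280.0 and 331, a further fall by 0.90 (SE 0.206, adjusted p = 0.00706) that was lost without the A libraries (adjusted p = 0.0985) or the C libraries (0.0773). The labelled share of Ptgs1 at day −2 was 1.54% ± 0.271 (n = 3), and 6484 of 9387 genes had a higher one. A second Ptgs1 entry in the tables held the same number of reads in each group (17561 at day −2 and 1475 at day 3), so the pair counts the same reads and only 1 was used.

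**Figure D1:**
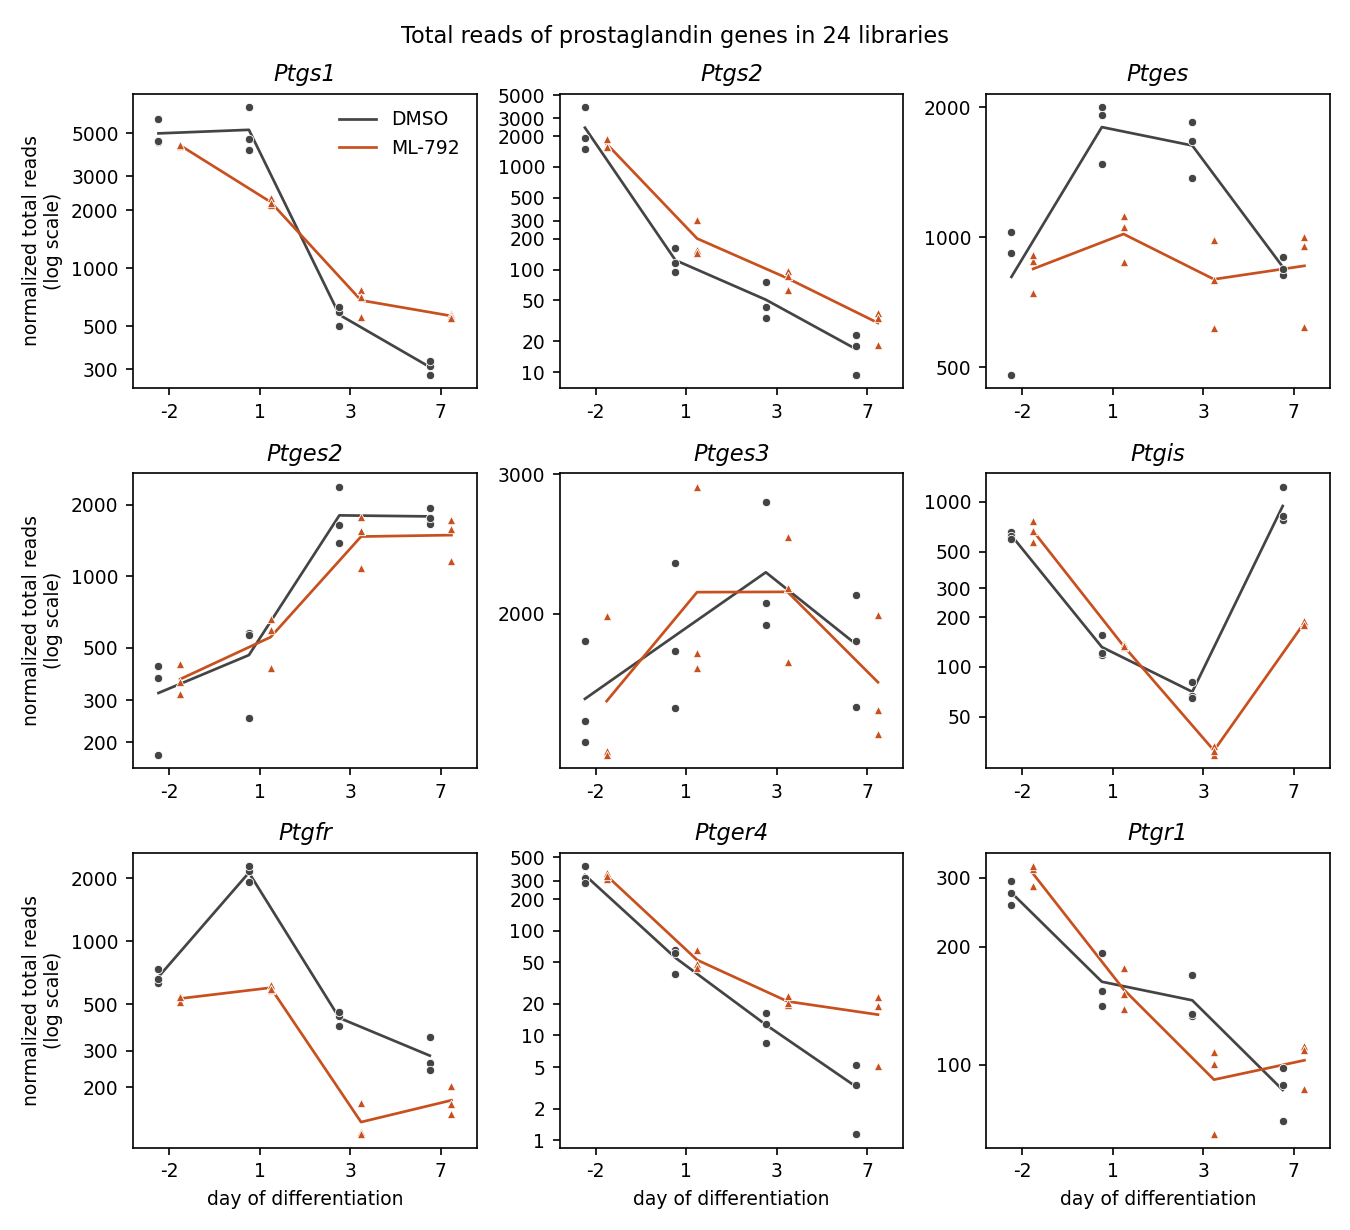
Normalized total reads (log scale, each panel with its own range) of the 9 genes by day of differentiation in DMSO (circles) and ML-792 (triangles), with 1 point per library and lines through the means of 3 libraries. In DMSO the mean of Ptgs2 goes from 2412 at day −2 to 16.7 at day 7 and that of Ptgs1 from 5206 at day 1 to 574 at day 3, Ptgfr peaks at day 1 in DMSO at a mean of 2132, and Ptgis returns to 944 at day 7 in DMSO and to 185 in ML-792.

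Ptger4, the EP4 receptor for prostaglandin E2, was also highest before induction. Its total reads were 411, 319.8 and 286 at day −2 in DMSO, 65.5, 61.1 and 38.7 at day 1, 16.5, 12.9 and 8.51 at day 3, and 3.37, 5.20 and 1.14 at day 7. The groups of successive days did not overlap. Across the 8 group means of log2 total reads, Ptger4 and Ptgs2 had r = 0.984, a description over groups that share the day axis. Total reads fell by 2.62 (SE 0.322) to day 1 and by 2.10 (SE 0.371) to day 3 on the log2 scale (edgeR, adjusted p = 2.78e-05 and 0.000458), the latter not called without the A libraries (adjusted p = 0.0197). Labelled reads fell by 5.64 to day 1 (SE 0.786), from 141, 44 and 51 reads to 2, 2 and 0. This fall is given as a description with no test, since Ptger4 passed the labelled filter only through day −2 libraries. The labelled share at day −2 was 27.5%, 12.1% and 15.5% in DMSO and 19.0%, 22.2% and 20.4% in ML-792. Over the pooled reads it was 19.6% in DMSO, with 88 of 9387 genes above it. The DMSO libraries differed more in this share than counting error allows, since the interval of library A (23.8% to 31.5%) lay above those of B (9.15% to 15.9%) and C (up to 19.8%).

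**Figure D2:**
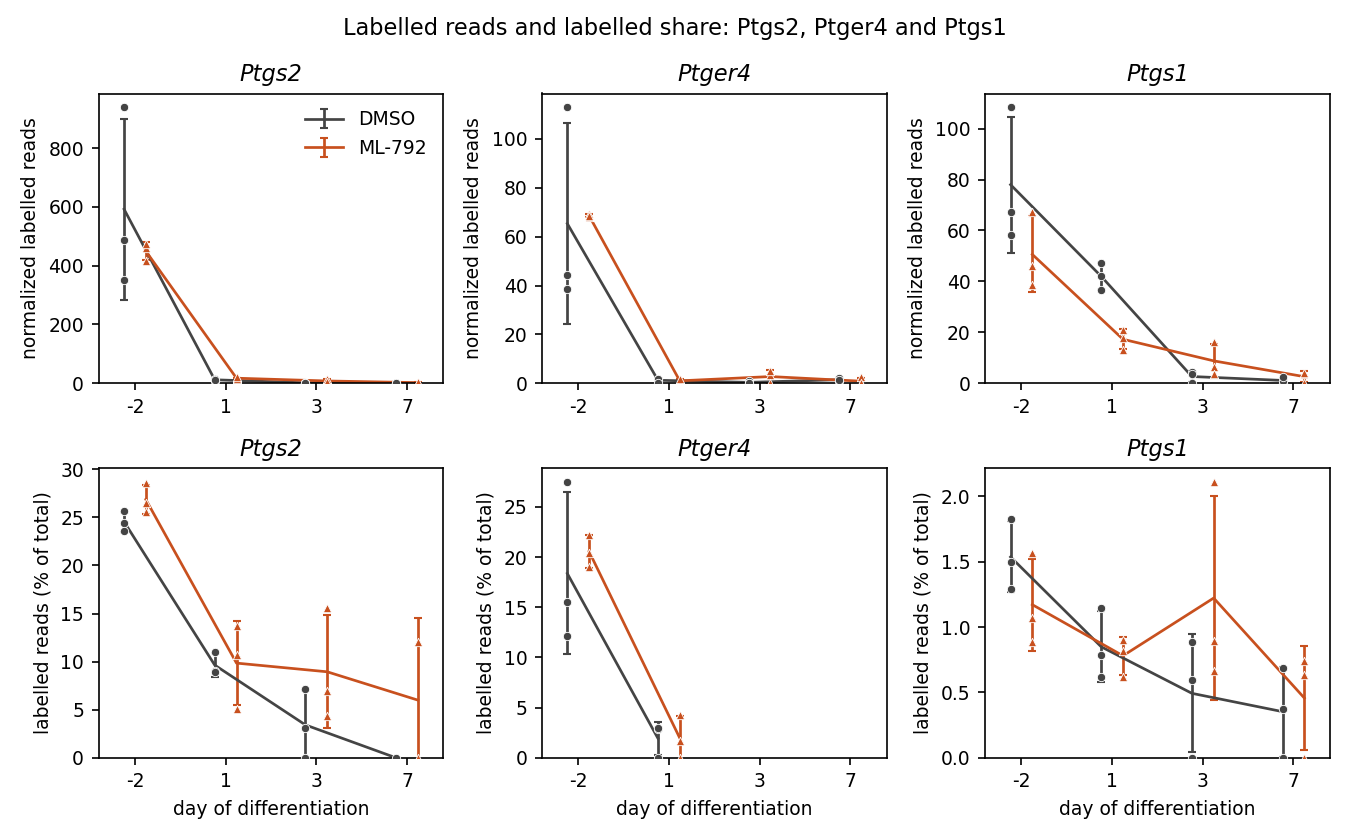
Labelled reads (normalized, upper row) and the labelled share of total reads (percent, lower row) of Ptgs2, Ptger4 and Ptgs1 by day, in DMSO (circles) and ML-792 (triangles); points are libraries, lines join the means of the libraries drawn and bars are SD, and shares are drawn only for libraries with at least 20 reads of the gene. At day −2 in DMSO the share is 23.6% to 25.7% for Ptgs2 and 12.1% to 27.5% for Ptger4, and its mean is 1.54% for Ptgs1.

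Ptgfr, the receptor for prostaglandin F2α, rose after induction before it fell. In DMSO its total reads were 735, 633 and 659.8 at day −2 and 2179, 2284 and 1931 at day 1. They were 439, 458 and 394 at day 3 and 262, 348 and 242 at day 7. The rise to day 1 was 1.66 on the log2 scale (SE 0.173, adjusted p = 5.54e-06, edgeR) and the fall to day 3 was by 2.31 (SE 0.177, adjusted p = 1.49e-07), and no library of day 1 overlapped with those of the days around it. Labelled Ptgfr reads were 26, 10 and 7 at day −2, 33, 33 and 20 at day 1 and 1, 0 and 7 at day 3, and neither step passed the threshold in labelled reads (adjusted p = 0.222 and 0.0206, edgeR), although DESeq2 called the second (0.00996) and edgeR did without the C libraries (0.0048).

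The peak of Ptgfr was much lower in ML-792. At day 1 its total reads were 617, 588 and 595 in ML-792, all below the lowest DMSO library of that day. The log2 fold change against DMSO was −1.83 (SE 0.162, adjusted p = 6.84e-08, edgeR), a mean 3.55-fold lower. At day 3 the ML-792 libraries held 122, 119 and 169 reads (log2 fold change −1.65, SE 0.168, adjusted p = 1.98e-07) and at day 7 149.8, 167 and 204 (−0.71, SE 0.166, adjusted p = 0.00759). The day 7 call was lost without the A libraries (adjusted p = 0.233) and in a fit of the 6 day 7 libraries alone (0.118). At day −2 the difference was −0.34 (SE 0.157), with an unadjusted p of 0.039 and an adjusted p of 1. The effect of ML-792 on Ptgfr differed between days (F-test of the interaction, adjusted p = 0.000116).

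The prostacyclin synthase Ptgis fell and came back. In DMSO its total reads were 660.0, 618 and 599 at day −2, 118, 156 and 122 at day 1, 80.5, 67.0 and 64.4 at day 3, and 775, 1237 and 819 at day 7. All 3 steps were called, the falls by 2.25 (SE 0.216, adjusted p = 2.43e-06) and 0.90 (SE 0.223, adjusted p = 0.0063) and the rise of 3.74 on the log2 scale (SE 0.233, adjusted p = 1.45e-07, edgeR). The smaller fall from day 1 to day 3 was not called without the A, B or C libraries (adjusted p = 0.0455, 0.0103 and 0.0732). The mean rose 13.4-fold from day 3 to day 7. Labelled Ptgis reads never exceeded 6 in a library, and at day 3 0 were found among 183 reads in DMSO, which allows a share of up to 1.64%, so newly made Ptgis RNA could not be followed at this depth.

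In ML-792 Ptgis fell as well and reached a lower level at day 7. Total reads in ML-792 were 571, 761 and 666 at day −2 and 137, 131 and 133 at day 1, and overlapped with DMSO on both days. At day 3 they were 29.4, 33.0 and 31.0, below all DMSO libraries (log2 fold change −1.18, SE 0.211, adjusted p = 0.00038, edgeR). At day 7 they were 185, 190.3 and 181, against 775 or more in DMSO, a log2 fold change of −2.35 (SE 0.183, adjusted p = 6.74e-09) and a mean 5.09-fold lower. The interaction of day and treatment had an adjusted p of 7.43e-07. The adipocyte markers summed to a higher level in these day 7 libraries, 861019–882523 in ML-792 and 630869–706609 in DMSO, though Slc2a4 had a mean of 1145 against 3073. The fibroblast markers summed to 44001–63323 and 25209–37734, though Dlk1 had a mean of 1492 against 3098. The part of these marker differences in the day 7 results was not tested.

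Ptges encodes the inducible prostaglandin E synthase that works with cyclooxygenase 2. In DMSO its total reads were 919, 480.2 and 1031 at day −2, 1916, 1479.8 and 2005 at day 1, 1674, 1370.3 and 1853 at day 3, and 820.5, 899 and 844 at day 7. At day 7 the libraries overlapped with those of day −2. The rise to day 1 was 1.15 (SE 0.239, adjusted p = 0.00245, edgeR) and was lost without the A libraries (adjusted p = 0.0680) or the C libraries (0.0206). In ML-792 the gene was lower on these days, with 1056, 876 and 1123 reads at day 1 (log2 fold change against DMSO −0.82, SE 0.231, adjusted p = 0.0376) and 987, 616 and 797 at day 3 (−1.03, SE 0.233, adjusted p = 0.0042). All ML-792 libraries of both days lay below those of DMSO. The day 1 call was lost without the A (adjusted p = 0.464) or C libraries (0.301) and the day 3 call without the C libraries (0.139). At days −2 and 7 the treatments overlapped, with log2 fold changes of 0.06 (SE 0.230) and 0.01 (SE 0.231). The interaction had an adjusted p of 0.0528, and of 0.559 and 0.514 without the A and the C libraries. Labelled Ptges reads passed the threshold neither to day 1 (log2 fold change −0.56, SE 0.562, adjusted p = 0.435, edgeR) nor to day 3 (−0.35, SE 0.586, adjusted p = 0.809).

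Ptges2 and Ptges3 encode prostaglandin E synthases that also have other roles, Ptges3 as the co-chaperone p23 of HSP90. Ptges2 total reads in DMSO were 371, 177 and 419 at day −2, 577, 254 and 566 at day 1, 1646, 1381 and 2383 at day 3, and 1658, 1761 and 1937 at day 7. The rise from day 1 to day 3 was 1.95 on the log2 scale (SE 0.334, adjusted p = 0.00035, edgeR), and it was the sole rise called among the 9 genes at that step. With ML-792 the gene reached 1083 to 1773 at day 3 and 1159.7 to 1729 at day 7, and no day passed the test between treatments. Ptges3 ranged from 1378 to 2766 total reads over the DMSO libraries and from 1329 to 2892 in ML-792, and no step or treatment was called in total reads. Its B library was the highest of its group in 8 of 8 groups, and for Ptges2 and Ptges the B library was the lowest in 7 of 8.

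Ptgr1, which reduces and inactivates prostaglandins and other lipid aldehydes and ketones, had fewer total reads late in the course, with 294, 275 and 255 at day −2 and 71.9, 97.8 and 88.7 at day 7 in DMSO. No single step passed the threshold (adjusted p = 0.0209, 0.654 and 0.0336, edgeR), although DESeq2 called the first (0.00245). It was lower in ML-792 at day 3, when these libraries held 66.4, 108 and 101 reads against 133, 169 and 135 (log2 fold change −0.67, SE 0.211, adjusted p = 0.0436). This call was lost without the A (adjusted p = 0.426) or C libraries (0.184), without a filter on low counts (0.271) and in a fit of the 6 day 3 libraries alone (0.256).

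The labelled reads of Ptgr1 were few. In ML-792 they were 2, 4 and 0 at day −2, 12, 8 and 13 at day 1, 12, 3 and 11 at day 3 and 6, 15 and 7 at day 7. In DMSO they were 0, 2 and 1 at day −2, 1, 2 and 1 at day 1, 3, 0 and 6 at day 3 and 3, 4 and 7 at day 7. The labelled share at day 1 was 8.70%, 5.41% and 8.78% in ML-792 and 0.606%, 0.935% and 0.595% in DMSO, while the total reads overlapped (mean 156 ± 19.2 and 163 ± 26.5, n = 3 each). Over the pooled reads of ML-792 at day 1, 79 of 8875 genes had a share above that of Ptgr1. At days 3 and 7 the share was 12.3% ± 8.15 and 11.7% ± 5.46 in ML-792 and 2.63% ± 2.71 and 5.97% ± 2.61 in DMSO (n = 3 each), and the treatments overlapped. The difference in labelled reads at day 1 was 3.16 on the log2 scale (SE 1.06), with an unadjusted p of 0.00427 and an adjusted p of 0.181 (edgeR), so it was not called, and the adjusted p ranged from 0.141 to 0.550 over the alternatives that gave one. Within ML-792, labelled Ptgr1 rose from day −2 to day 7 by 2.92 (SE 0.877, adjusted p = 0.00428) while total Ptgr1 fell by 1.58 (SE 0.215, adjusted p = 3.41e-05). The labelled rise rests on 6 and 28 reads. Its call was lost without the A, B or C libraries (adjusted p = 0.0184, 0.0221 and 0.0505) and in a fit of all 24 libraries (0.0144). A second entry of the gene held 2 labelled of 470 reads at day 1 in DMSO and 13 of 348 in ML-792. The entry used held 4 of 547 and 33 of 434. Whether the 2 entries count the same reads was not tested, so the second is not independent support. No other annotated gene overlapped the 3′UTR entry of any of the 9 genes.

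**Figure D3:**
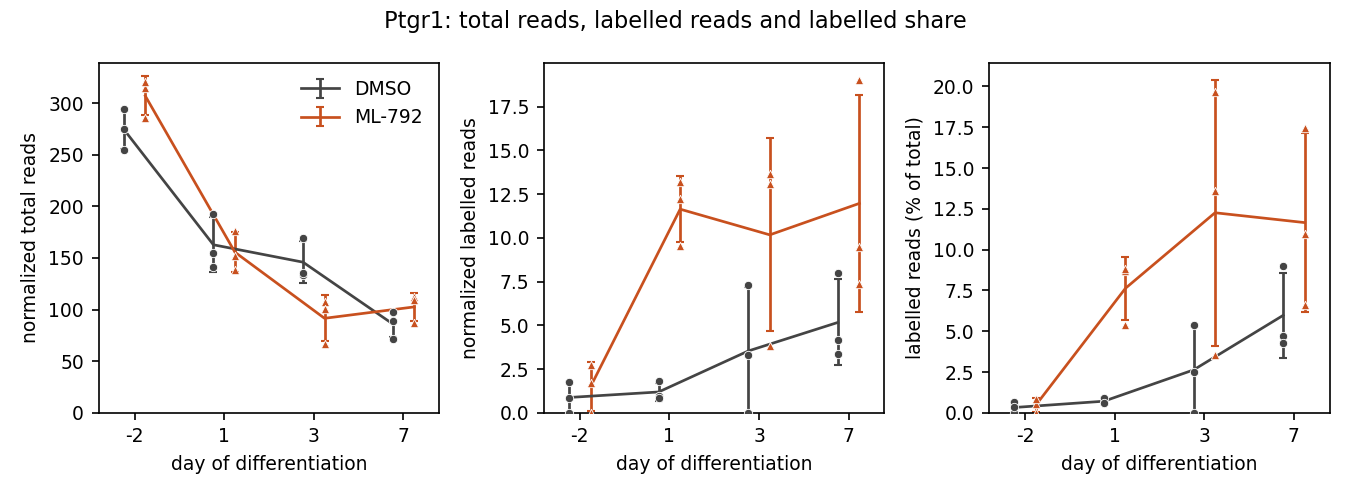
Ptgr1 by day of differentiation in DMSO (circles) and ML-792 (triangles): normalized total reads, normalized labelled reads and labelled reads as percent of total, with 1 point per library, lines through the means of 3 libraries and SD bars. Mean total reads go from 275 at day −2 to 86.2 at day 7 in DMSO and from 307 to 103 in ML-792, while at day 1 the labelled share lies between 5.41% and 8.78% in ML-792 and between 0.595% and 0.935% in DMSO.

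Counted over the genes, the steps in DMSO looked as follows in total reads. From day −2 to day 1, 5 of 9 genes were called, Ptges and Ptgfr higher and Ptger4, Ptgis and Ptgs2 lower, against 13.9% of all entries. From day 1 to day 3, 5 of 9 were called against 19.1% of entries, with Ptges2 higher and Ptger4, Ptgfr, Ptgis and Ptgs1 lower. From day 3 to day 7, 2 of 9 were called against 8.74%, Ptgis higher and Ptgs1 lower, and the count rose to 4 with DESeq2, without a filter on low counts and in a fit of all 24 libraries, and to 6 with the library letter as a block, which added Ptger4, Ptges, Ptgfr and Ptgs2, all lower. For these alternatives the share of entries called was not computed, so 8.74% does not apply to the counts of 4 and 6. The first and the last of the 3 steps share libraries with the contrast behind the choice of Ptgs2. Ptgs2 is therefore counted there, in total and in labelled reads, as a description and not against the share of entries. In labelled reads, 2 of 7 tested genes were called from day −2 to day 1 (19.2% of entries), Ptger4 and Ptgs2, both lower. Ptgs2 was chosen on its labelled fall, and Ptger4 passed the labelled filter only through day −2 libraries. Both are therefore counted there as a description and not against the share of entries. From day 1 to day 3, 2 of 7 were called (3.16%), and 0 of 7 from day 3 to day 7 (0.255%). In that last step 0 of the 7 had an unadjusted p under 0.05, against 10.2% of entries, and DESeq2 called 0. From day −2 to day 7, as a description, the fitted median was −1.25 over the 9 genes in total reads and −2.18 over the 7 in labelled reads, against −0.03 and −1.51 over all entries.

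The course in ML-792, whose libraries the choice did not use, also ended with both cyclooxygenases and the EP4 receptor far below day −2. From day −2 to day 7, 7 of 9 genes were called in total reads, against 34.9% of all entries. Ptges2 was higher, and Ptger4, Ptgfr, Ptgis, Ptgr1, Ptgs1 and Ptgs2 were lower. Ptgs2 went from 1609.7, 1573 and 1853 total reads to 18.4, 38.1 and 33.9, a fall by 5.80 on the log2 scale (SE 0.346, adjusted p = 1.14e-08, edgeR), and Ptger4 fell by 4.39 (SE 0.372, adjusted p = 3.48e-07). In labelled reads 5 of 7 were called, against 39.4% of entries and a median of −1.74. Ptgr1 was higher, and Ptger4, Ptges3, Ptgs1 and Ptgs2 were lower. Ptger4 and Ptgr1 passed the labelled filter only through groups where they were high, and are counted as descriptions. Without the A, B or C libraries the count was 3 each time, with no share of entries computed. Ptgs2 fell by 7.63 (SE 0.521, adjusted p = 2.83e-20), Ptger4 fell by 6.13 (SE 0.785), Ptgs1 fell by 4.23 (SE 0.661) and Ptges3 fell by 1.82 (SE 0.575, adjusted p = 0.00635), a size close to the median of all entries. The call of Ptges3 was lost with labelled reads scaled by their own totals (log2 fold change −0.60, adjusted p = 0.485), with DESeq2 (0.0149), with a background share taken off (0.0127) and without the A, B or C libraries (0.0665, 0.0319 and 0.0107).

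For ML-792 against DMSO in total reads, 0 of 9 genes were called at day −2 (0% of entries), where 1 gene, Ptgfr, had an unadjusted p under 0.05, against 1.29% of entries, and DESeq2 called 0. At day 1, 3 of 9 were called against 6.49% of entries, Ptges, Ptgfr and Ptgs1, all lower in ML-792. At day 3, 4 of 9 were called against 13.2%, Ptges, Ptgfr, Ptgis and Ptgr1, all lower. On these days markers of the cell state also differed between treatments. At day 1 the fibroblast markers summed to 105456–163661 in ML-792 and 176007–193755 in DMSO, and the adipocyte markers to 35449.5–41630.0 and 42538–44631. Single markers of both lists went both ways. Pdgfra (mean 4921 in ML-792 against 4008 in DMSO), Thy1 (3968 against 2253), Fabp4 (3717 against 1752), Plin1 and Cidec were higher in every ML-792 library. Pdgfrb, Col3a1 (35895 against 62776), Lpl (30271 against 37437) and Pparg (1117 against 2163) were lower in every one. At day 3 the summed ranges overlapped, with 31935–41082 and 27633–36268 for fibroblast and 411626–471252 and 375110–512335 for adipocyte markers, but some single markers did not. Pdgfra (mean 2670 in ML-792 against 976 in DMSO), Thy1 (1006 against 553) and Col1a1 (17673 against 7427) were higher in every ML-792 library. Col3a1, of the same list, was lower in every one (13869 against 18702). Adipoq (16858 against 31235), Lpl (171449 against 231979) and Slc2a4 (217 against 706) were lower in every ML-792 library. Fabp4 had a higher mean in ML-792 (216210 against 139003), with overlapping libraries. The other markers of both lists overlapped. The part of these marker differences in the results of days 1 and 3 was not tested. At day 7, 4 of 9 were called against 9.82%, with Ptgfr and Ptgis lower and Ptgs1 and Ptger4 higher. The interaction was called for 5 of 9 genes, Ptger4, Ptges, Ptgfr, Ptgis and Ptgs1, against 9.77% of entries.

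Ptgs1 changed sides between days. At day 1 its ML-792 libraries held 2308, 2123 and 2176 total reads, about 2.36-fold under DMSO (log2 fold change −1.24, SE 0.171, adjusted p = 3.20e-05, edgeR). At day 3 they held 773, 711 and 561, overlapping with DMSO, and at day 7 581, 565 and 553 against 280.0 to 331 (log2 fold change 0.88, SE 0.174, adjusted p = 0.00188). Ptgs1 was thus lower at day 1 and higher at day 7 (interaction, adjusted p = 1.78e-05). The day 7 call was lost without the A libraries (adjusted p = 0.114). Ptger4 at day 7 held 23.3, 5.08 and 19.0 reads in ML-792 and 1.14 to 5.20 in DMSO, groups that overlapped by 1 library (log2 fold change 2.22, SE 0.522, adjusted p = 0.00802). It rested on 37 and 9 reads, and was not called without the A libraries (adjusted p = 0.269), without the C libraries (0.245) or in a fit of the 6 day 7 libraries (0.187). Its interaction (adjusted p = 0.0626) was not called without the A (0.710) or C libraries (0.618).

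**Figure D4:**
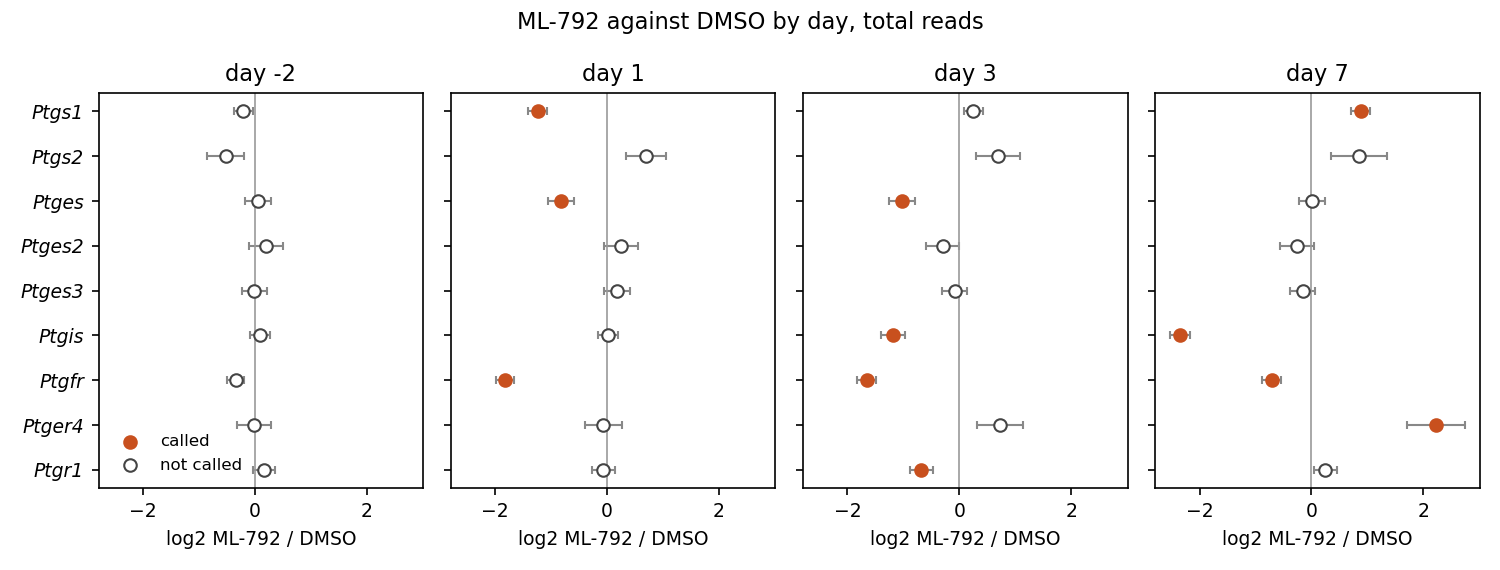
Log2 fold change of ML-792 over DMSO in total reads at each day for the 9 genes, with bars of 1 standard error from edgeR; filled points were called at an adjusted p under 0.1. Ptgfr lies at −1.83 at day 1 and −1.65 at day 3, Ptgis at −2.35 at day 7, and Ptgs1 moves from −1.24 at day 1 to 0.88 at day 7.

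Ptgs2 itself was not called between treatments on any day in the fit of all 24 libraries. Its total reads in ML-792 were 154, 304 and 143 at day 1, 63.1, 97.6 and 85.6 at day 3 and 18.4, 38.1 and 33.9 at day 7, overlapping with DMSO each time, with log2 fold changes of 0.70 (SE 0.354), 0.69 (SE 0.395) and 0.85 (SE 0.494) and adjusted p-values of 0.378 and 0.363 at days 1 and 3 (edgeR). The day 7 difference shares the DMSO day 7 libraries with the choice of Ptgs2 and is a description. The day 1 difference was called without a filter on low counts (adjusted p = 0.0913) and the day 3 difference without the B libraries (0.0206). Labelled Ptgs2 reads at day 3 were 4, 12 and 3 in ML-792 and 0, 2 and 2 in DMSO (log2 fold change 2.21, SE 0.715, adjusted p = 0.177, edgeR, and 0.114 to 0.669 over the alternatives). In labelled reads no gene of the 7 was called between treatments at day −2 (0% of entries), day 1 (0.854%), day 3 (0.962%) or day 7 (0.903%), nor in the interaction (0.245%). At an unadjusted p under 0.05 there were 0 at day −2 (0.687% of entries), 3 at day 1 (Ptges, Ptgr1 and Ptgs1, against 11.0%), 2 at day 3 (Ptgs1 and Ptgs2, against 10.2%), 0 at day 7 (11.4%) and 2 in the interaction (8.08%). Ptgr1 is counted at day 1 as a description, since it passed the filter only through ML-792 libraries. DESeq2 called 0 on each day and 1 in the interaction, Ptgs1. After day −2 the labelled reads of Ptgs2 numbered 3 to 49 per group of 3 libraries and those of Ptger4 1 to 7, so only large differences were within reach of these counts.

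Of 10 genes in the tables for enzymes that release arachidonic acid 9 were tested in total reads. From day 1 to day 3 in DMSO 5 rose and 1 fell, against 19.1% of all entries called in either direction. Mgll, the monoacylglycerol lipase, rose by 4.98 on the log2 scale (SE 0.334), Pla2g16, the adipose phospholipase A2, by 4.80 (SE 0.194) and Pla2g2e by 3.84 (SE 0.957), with Pla2g2e under 10 mean reads on both days. Pla2g4a, the cytosolic phospholipase A2 that supplies cyclooxygenases, fell to day 1 (−1.30, SE 0.319, adjusted p = 0.00759, edgeR) and again to day 3 (−1.26, SE 0.334, adjusted p = 0.00956), from a mean of 434 to 73.3 reads, and is named here after its values were seen. At day 3 with ML-792, 3 of the 9 were lower, Pla2g2e, Pla2g16 (log2 fold change −1.41, SE 0.161) and Pla2g12a, and Mgll was higher (1.54, SE 0.247), against 13.2% of entries called. At day 7, 2 were lower and 2 higher, against 9.82% of entries, with Pla2g12a at −1.31 (SE 0.135) and Mgll at 0.94 (SE 0.241).

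Of the other prostanoid synthases, 7 of 9 genes in the tables were tested. Ptgds, the prostaglandin D synthase, rose late, from a mean of 0.368 reads at day 3 to 245 at day 7 in DMSO (adjusted p = 1.02e-06, edgeR). In ML-792 it reached 27.7 (log2 fold change against DMSO −3.14, SE 0.457, adjusted p = 5.76e-05). Ptgis likewise was higher at day 7 than at day 3 and lower in ML-792. Fam213b, a prostaglandin F synthase, rose from day 1 to day 3 in DMSO (2.08, SE 0.307) and was lower with ML-792 at day 3 (−1.69, SE 0.265). Cbr1, a carbonyl reductase, rose at the same step (2.00, SE 0.378) and was lower with ML-792 at day 7 (−1.20, SE 0.356, adjusted p = 0.0412). Hpgds and Tbxas1 did not pass the filter.

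Of 8 other receptors and partners, 4 passed the filter, and the prostaglandin D receptor genes Ptgdr and Ptgdr2 had group means of at most 0.423 and 0 reads. Ptgfrn, a membrane protein that binds the prostaglandin F receptor and dampens its ligand binding, also peaked at day 1 in DMSO. Its mean rose from 1211 at day −2 to 2648 at day 1 in DMSO (1.13, SE 0.152, adjusted p = 6.75e-05) and fell to 657 at day 3 (−2.01, SE 0.157). In ML-792 the day 1 mean was 999.5 (log2 fold change −1.41, SE 0.138, adjusted p = 3.32e-07), and at day 7 it was higher than in DMSO (0.75, SE 0.140). Tbxa2r, the thromboxane receptor, fell from a mean of 42.1 to 0.88 reads to day 1 (adjusted p = 0.000713), and Ptger1, the EP1 receptor, was lower with ML-792 at day 1 (−1.49, SE 0.382, adjusted p = 0.0198). Of 6 genes of breakdown and transport 3 passed the filter. Ptgr2, another prostaglandin reductase, rose from day 1 to day 3 in DMSO (1.15, SE 0.187, adjusted p = 0.000231, edgeR), and Abcc4, an efflux pump for prostaglandins, was lower with ML-792 at day 7 (−1.22, SE 0.234, adjusted p = 0.00134).

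The genes most like Ptgs2 in course, by Pearson's r over the 8 group means of log2 total reads among 13265 genes, were Plcxd2 (r = 0.9915), Dscr3 (0.9911), Myo5a (0.9893), Lrrc16b (0.9888) and Prkx (0.9887). They fell over a narrower range than Ptgs2. Plcxd2 went from a mean of 209.6 at day −2 to 26.2 at day 7 in DMSO, and Myo5a from 1394 to 402. Those most like Ptgis were Mok (0.9792), Skap2 (0.9786), Trip6 (0.9784), Flt3l (0.9743) and Fbxo7 (0.9695), of which Flt3l went from 142.6 at day −2 to 37.9 at day 3 and 161 at day 7.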

How the data were processed

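Per the labels and the study's methods, the authors sequenced 3′ end libraries from 24 samples of 3T3-L1 cells, aligned the reads to mm10 with SlamDunk and counted total and labelled (T to C) reads on RefSeq 3′UTR entries. The deposited values are raw counts in both readouts. 6 columns of each table matched no sample and were not used. Groups came from the sample labels. Counts were tested with edgeR 4.0.16 (quasi-likelihood, robust, R 4.3.3, limma 3.58.1), scaling both readouts by the TMM-adjusted depth in total reads. The edgeR filter on low counts asked for 10 reads, scaled for depth, in at least as many libraries as a group held, and 15 in all. Time steps were fitted within a treatment, and ML-792 against DMSO and the interaction in all 24 libraries. DESeq2 1.42.0, other filters, scalings, entries and sets of libraries were alternatives. Shares have Wilson 95% intervals. The tests were tested on simulated data. Sequences came from RefSeq (GRCm38.p6), and figures were drawn with matplotlib 3.10.9. The genes and lists were chosen with earlier results of these data known. All 9 genes are named. Of the other pathway lists, up to 3 called genes per list and comparison with the largest fold change were eligible, and the 5 genes most correlated with Ptgs2 and with Ptgis.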

Additional observations from a re-analysis of the deposited data

Results flagged for a closer look

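For 5 of the 9 genes the interaction of day and treatment in total reads was called, against 9.77% of entries (edgeR over all entries, adjusted p under 0.1). Ptgis had an adjusted p of 7.43e-07, with log2 fold changes of ML-792 over DMSO of 0.09, 0.02, −1.18 and −2.35 at days −2, 1, 3 and 7. Ptgs1 had 1.78e-05, with −0.21, −1.24, 0.25 and 0.88. Ptgfr had 0.000116, with −0.34, −1.83, −1.65 and −0.71. Ptges had 0.0528, with 0.06, −0.82, −1.03 and 0.01, and was not called without the A libraries (adjusted p = 0.559) or the C libraries (0.514). Ptger4 had 0.0626, with −0.02, −0.07, 0.72 and 2.22, and was not called without the A (0.710) or the C libraries (0.618).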

How the results depend on the processing

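Of 178 counts of called genes recomputed under an alternative, 159 stayed within 1.5 times the value given and 19 did not. Of 369 recomputed fold changes of called genes, 334 kept direction and call, 35 kept the direction and lost the call, and 0 turned. From day 3 to day 7 in DMSO, the count of 2 in total reads became 4 with DESeq2, 4 without a filter on low counts and 4 in a fit of all 24 libraries. ML-792 against DMSO at day 7 went from 4 to 2 in a fit of the 6 libraries of that day. In labelled reads the interaction went from 0 to 1 with DESeq2 (Ptgs1, adjusted p = 0.0992), and the step from day 1 to day 3 in DMSO from 2 to 1 when labelled reads were scaled by their own totals (Ptgs2 lost, adjusted p = 0.0131). The cause was not tested. Under the alternatives the share of all entries called was not computed, so the recomputed counts have no share beside them.

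Leaving out the A, B or C libraries gave, in total reads, counts of 4 to 6 from day −2 to day 1 in DMSO, 3 to 5 in the next step, 1 to 4 in the last, and 7 for the whole course in ML-792. For ML-792 against DMSO it gave 0 at day −2, 2 to 3 at day 1, 2 to 5 at day 3, 1 to 4 at day 7 and 3 to 5 in the interaction. In labelled reads it gave 2 for the first step in DMSO, 1 to 2 for the second, 3 for the whole course in ML-792 and 0 in the other comparisons.

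Libraries with the same letter deviated together more than others did, with a mean correlation of their deviations of 0.194 in total reads against −0.0954 for pairs of different letters, and 69 of 84 same-letter pairs were over 0.1. Since not every pair was (lowest −0.180, and 23 of 84 over 0.1 in labelled reads) and the labels do not say what a letter shares, the fits given use no block. With the letter as a replicate block the count from day 3 to day 7 in DMSO rose from 2 to 6, adding Ptger4 (adjusted p = 0.00573), Ptges (0.00150) and Ptgfr (0.00519), and Ptgs2. The share of all entries called with this block was not computed. Labelled counts of a few reads per library limit what could be seen for Ptgis, Ptgr1 and Ptger4 after day −2.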
